A study of Mus musculus with 32 samples.

Results

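The levels of 8 secreted liver proteins, known as hepatokines, were followed across diet, drug treatment and liver regrowth: Fgf21, Gdf15, Inhbe, Fetub, Ahsg, Angptl4, Angptl6 and Rbp4. Members were chosen by name, as the probes that carry 1 of these 8 gene names in the scanner files. Each gene had 1 probe, so 8 of the 21691 genes tested are described. All 8 probes were well above background on all 32 arrays, and no member spot was marked as an outlier or saturated. RNA came from livers of male C57/BL6 mice, 1 array per liver and 4 independent livers in each of 8 groups. Baseline groups had standard diet, an MCD diet (labelled a methyl and choline deficient diet) for 3 weeks, standard diet with a dual agonist of GLP1R/GCGR for 2 weeks, or the MCD diet for 3 weeks with the agonist in the last 2. The agonist, which acts on the receptors for glucagon-like peptide 1 and for glucagon, was given at 4.4 mg/kg/day. The other 4 groups had the same diets and treatments, then a 70% partial hepatectomy, and were sampled 2 weeks later with diet and agonist continued. Livers after hepatectomy therefore also differ from baseline livers in the length of diet and treatment. The MCD diet is a dietary model of steatohepatitis, in which mice also lose weight.

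Hepatokines are proteins that hepatocytes release into blood and that act on other tissues. Fgf21 is a fasting and stress hormone that signals through a fibroblast growth factor receptor with the co-receptor beta-klotho, Gdf15 lowers food intake through the brainstem receptor GFRAL, and Inhbe encodes the beta chain of activin E. Transcription of Fgf21 is known to be raised by PPAR alpha in fasting and by ATF4 in the integrated stress response, which also acts on Gdf15. Angptl4 inhibits lipoprotein lipase and is a PPAR target, and Angptl6 is an angiopoietin-like growth factor. Ahsg (fetuin-A) and Fetub (fetuin-B) are cystatin family plasma proteins, of which fetuin-A inhibits the insulin receptor and fetuin-B the ovastacin protease. Rbp4 carries retinol from the liver to other tissues.

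On the mm9 build, as the files give it, the Fgf21 probe lies at chr7:52869305-52869364, the Gdf15 probe at chr8:73153293-73153352 and the Inhbe probe at chr10:126786719-126786778. The Fetub probe lies at chr16:22939736-22939795, the Ahsg probe at chr16:22899415-22899474 and the Angptl4 probe at chr17:33911880-33911939. The Angptl6 probe lies at chr9:20678326-20678385 and the Rbp4 probe at chr19:38191120-38191179. Whether a probe lies in coding sequence or in an untranslated region was not looked up. In the reference annotation (GRCm38.p6), Angptl6 overlaps Shfl and Ahsg overlaps the locus Gm30505.

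The 250 bases before the annotated start are shown for the pair that had the largest rises with the diet without agonist, Fgf21 and Inhbe, and for Gdf15 and Rbp4, which passed no such test. Sequences are from RefSeq (GRCm38.p6), 5′ to 3′ along the gene. Capitals mark matches to TGATGNAA, the core of the amino acid response element that ATF4 dimers bind, searched on both strands.
Fgf21, chr7:45615491-45615740, minus strand: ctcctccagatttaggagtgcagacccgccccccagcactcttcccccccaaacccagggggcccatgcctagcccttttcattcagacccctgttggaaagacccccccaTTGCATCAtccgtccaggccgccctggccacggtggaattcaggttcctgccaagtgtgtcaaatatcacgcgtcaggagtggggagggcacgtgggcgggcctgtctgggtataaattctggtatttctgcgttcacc
Inhbe, chr10:127351849-127352098, minus strand: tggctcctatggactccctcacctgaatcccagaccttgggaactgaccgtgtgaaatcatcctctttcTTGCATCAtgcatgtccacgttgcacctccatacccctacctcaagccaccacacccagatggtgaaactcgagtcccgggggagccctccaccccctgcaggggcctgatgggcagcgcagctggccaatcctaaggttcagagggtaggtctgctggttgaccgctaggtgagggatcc
Gdf15, chr8:70632457-70632706, minus strand: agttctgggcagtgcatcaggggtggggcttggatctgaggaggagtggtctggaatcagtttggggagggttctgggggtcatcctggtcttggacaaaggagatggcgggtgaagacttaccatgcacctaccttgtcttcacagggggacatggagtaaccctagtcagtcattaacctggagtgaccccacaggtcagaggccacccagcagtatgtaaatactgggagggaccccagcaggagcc
Rbp4, chr19:38125322-38125571, minus strand: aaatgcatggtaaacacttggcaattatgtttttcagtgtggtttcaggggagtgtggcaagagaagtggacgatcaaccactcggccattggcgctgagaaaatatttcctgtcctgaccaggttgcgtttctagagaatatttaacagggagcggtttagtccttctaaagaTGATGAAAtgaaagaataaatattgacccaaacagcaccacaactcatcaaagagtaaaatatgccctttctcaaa
Fgf21 holds the letters TTGCATCA from 139 bases before its start, and Inhbe holds the same letters from 181 bases before its start. Of all 32851 promoters in the table, 3.45% hold a match in this window. Rbp4, whose level passed no test, also holds one (TGATGAAA) at its first annotated start, and the shown Gdf15 window holds none. The table covered 7 of the 8 genes with 10 starts. The cAMP response element TGACGTCA was found at 0 of these 10 starts, against 1.55% of all promoters. The nuclear receptor direct repeat AGGTCANAGGTCA was also found at 0 of the 10, against 0.0335%. A match describes letters only and shows no binding.

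Levels below are log2 of the processed Cy3 signal relative to the array's own 75th percentile, so a level of 0 equals that percentile, and levels of different genes are not comparable between probes. Changes are differences of group means with their standard error (SE), and adjusted p-values come from a single limma fit over 8 groups, with Benjamini-Hochberg adjustment over all 21691 genes and a threshold of 0.05. The SE rests on 1 spread per gene shared by all 8 groups, so it does not show where groups differ in spread. The share of probes well above background ran from 43.1% to 69.1% over the arrays. The number of arrays limits the precision. The 4 slides carried 2 groups each, 1 per row. The diet at baseline and the agonist after hepatectomy were compared within a slide, between its rows, and a row effect cannot be told apart from them. Comparisons between slides were those of the diet after hepatectomy, of the agonist at baseline and of hepatectomy, the last also between 2 scanners, and these cannot be told apart from slide or scanner. In the processed table that the submitters deposited, 16 of 32 columns match an array of another group better than their own, with the MCD diet and the agonist on standard diet exchanged, so that table entered only as an alternative. Whether the exchange lies in the table or in the records of the arrays could not be settled. If it lies in the arrays, the livers called MCD here had standard diet with agonist and the reverse, at baseline and after hepatectomy, and the diet and agonist values below would change their meaning.

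All 10 hepatocyte markers, led by Alb and Ttr, were well above background on every array of every group. Macrophage markers (11 genes, summed level) ranged from 58.4 to 105 in standard diet livers and from 130 to 343 in MCD livers at baseline. A pair of livers stood apart, replicate 1 on standard diet after hepatectomy and replicate 4 on standard diet with agonist after hepatectomy. Their cholangiocyte sums were 54.4 and 32.9, against 2.81 to 11.4 in all other livers. Their macrophage sums of 674 and 589 were the highest but less set apart, since an MCD liver after hepatectomy reached 510. For the main results that use them, values without both livers are given as well, a comparison chosen after seeing the data. In bulk tissue, fewer cells of a type and less RNA per cell cannot be told apart.

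**Figure D1:**
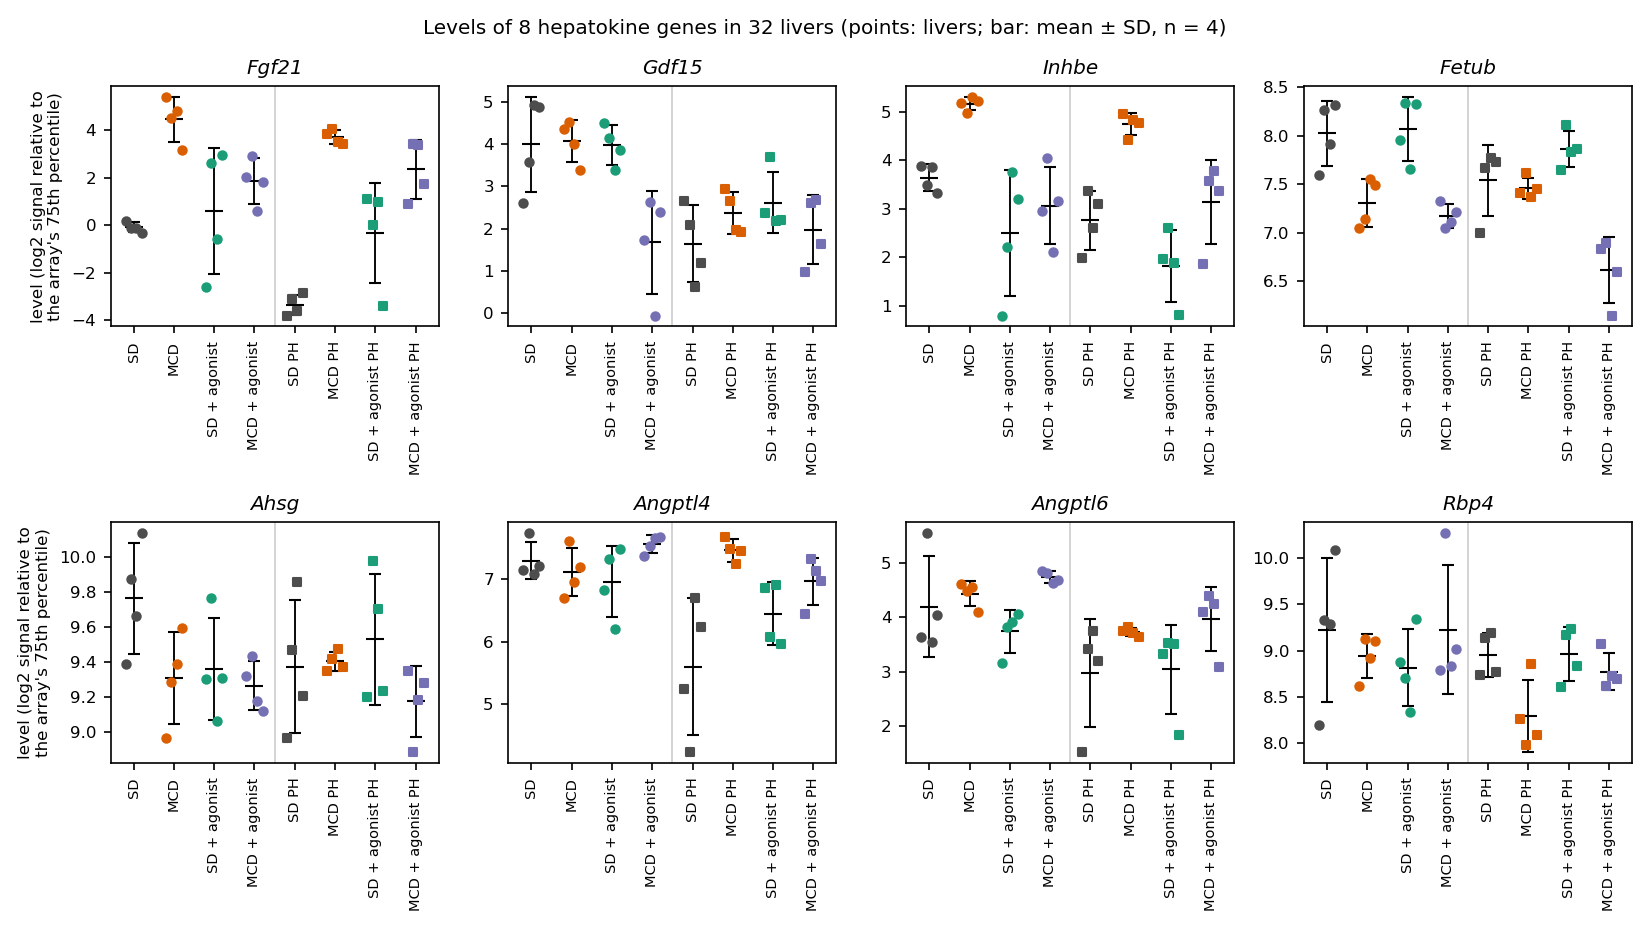
Levels of the 8 hepatokine genes (log2, relative to each array's 75th percentile) in the 8 groups (PH, partial hepatectomy); points are livers, horizontal bars are means and error bars are standard deviations (n = 4). Fgf21 spans from -3.80 to 5.40 over the 32 livers, while Ahsg stays between 8.88 and 10.14.

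The members differed widely in how far they moved. The range between the highest and lowest group mean was 7.82 on the log2 scale for Fgf21, at percentile 99.9 of all genes tested. For Inhbe the range was 3.36 (percentile 97.4), for Gdf15 2.43 (91.4), for Angptl4 1.95 (83.3) and for Angptl6 1.77 (78.3). Fetub moved over 1.46 (65.2), Rbp4 over 0.94 (29.9) and Ahsg over 0.59 (6.21). Ahsg, Angptl6 and Rbp4 passed in 0 of the 15 comparisons.

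Counts of members that passed were small in every comparison. Under the MCD diet at baseline 2 members rose and 1 fell, where 26% of all genes passed. Under the MCD diet after hepatectomy 3 rose and 0 fell, where 11.5% of all genes passed. With agonist in both arms, the diet lowered 2 members at baseline (15.2% of all genes) and 1 after hepatectomy (8.23%). The agonist lowered 2 members on the MCD diet at baseline (13.3%). It moved 0 on standard diet at baseline (6.52%), 0 on standard diet after hepatectomy (0.00922%) and 0 on the MCD diet after hepatectomy (0.406%). In these 3 limma comparisons 1, 2 and 2 members had an unadjusted p under 0.05. Hepatectomy lowered 3 members on standard diet (13.8%) and 1 on the MCD diet (9.46%). It moved 0 on standard diet with agonist (7.3%) and 0 on the MCD diet with agonist (10%), each with 1 member at an unadjusted p under 0.05 in limma. The diet by agonist interaction was past the threshold for 1 member at baseline (11.1%) and for 0 after hepatectomy (0.00461%), where 3 had an unadjusted p under 0.05 in limma. The diet by hepatectomy interaction was past it for 1 member (2.6%). With 8 members, these counts do not set the hepatokines apart from other genes.

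**Figure D2:**
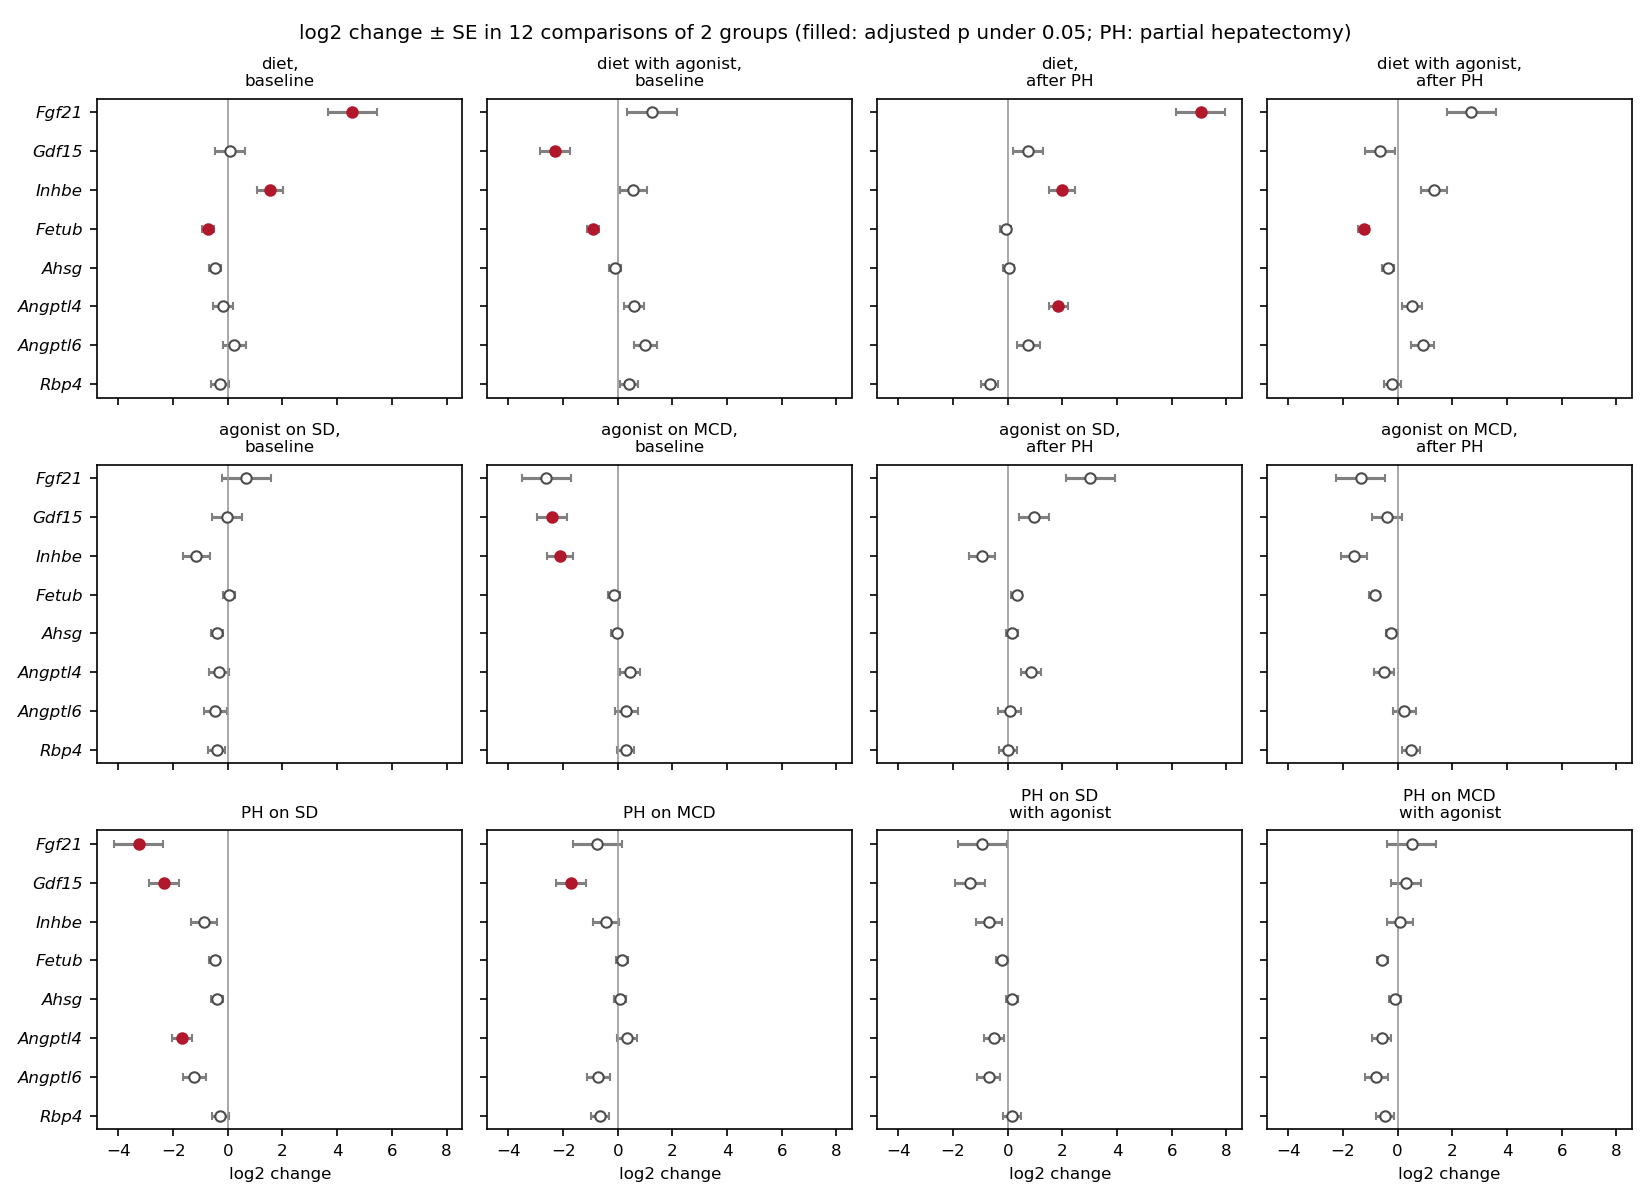
Log2 change ± SE of each hepatokine gene in the 12 comparisons of 2 groups (SD, standard diet; PH, partial hepatectomy); filled points passed an adjusted p of 0.05. Fgf21 has the largest change in both diet comparisons without agonist, 4.56 at baseline and 7.06 after hepatectomy.

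Without agonist, Fgf21 was the member that the diet moved most. On standard diet at baseline its levels were 0.20, -0.12, -0.11 and -0.31, and on the MCD diet they were 5.40, 4.51, 4.80 and 3.17. Every MCD liver was above every standard diet liver. The rise was 4.56 ± 0.90 (23.5-fold, adjusted p = 0.000589), and it passed with each of the 8 arrays left out in turn. After hepatectomy the levels were -3.80, -3.12, -3.60 and -2.87 on standard diet and 3.85, 4.08, 3.52 and 3.42 on the MCD diet. These groups stood far apart, with a rise of 7.06 ± 0.90 (134-fold, adjusted p = 6.01e-06). Without the 2 livers that stood apart the rise was 6.91 ± 0.85. The difference between these diet effects, 2.51 ± 1.27, did not pass (adjusted p = 0.277), where 2.6% of all genes did, but it passed in a fit of the groups compared alone (adjusted p = 0.0258).

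The wider gap after hepatectomy came with a lower level on standard diet. Fgf21 fell by 3.26 ± 0.90 from the standard diet livers at baseline to those after hepatectomy (9.58-fold, adjusted p = 0.0165), with no overlap between the groups. The call was lost without replicate 1 of the standard diet livers after hepatectomy (adjusted p = 0.0515), but not when both livers that stood apart were removed (-3.11 ± 0.85, adjusted p = 0.0241). On the MCD diet the levels before and after hepatectomy overlapped and the change was -0.75 ± 0.90 (adjusted p = 0.659).

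Fgf21 was most uneven under the agonist on standard diet. At baseline these livers had levels of -2.59, 2.61, -0.58 and 2.95, and after hepatectomy they had 1.09, 0.01, 1.00 and -3.42. The SD was 2.65 and 2.12, against 0.21 and 0.43 without agonist, and at baseline 2 treated livers lay above and 2 below every untreated liver. The liver at -3.42 is 1 of the pair with high macrophage and cholangiocyte sums. The change with agonist was 0.68 ± 0.90 at baseline (adjusted p = 0.709) and 3.02 ± 0.90 after hepatectomy (unadjusted p = 0.00225, limma adjusted p = 1.000). Without the 2 livers that stood apart the latter was 3.90 ± 0.91 (adjusted p = 0.301).

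On the MCD diet the agonist livers lay lower. At baseline their Fgf21 levels were 2.06, 2.94, 0.59 and 1.82, all below the 4 untreated MCD livers. The difference of -2.62 ± 0.90 missed the threshold (adjusted p = 0.0513). It passed under median scaling (adjusted p = 0.0290), under another background correction (0.00795), without the filter on dim probes (0.0488), in a fit of the groups compared alone (0.0202) and in the processed table with each column at the array it matches (0.0443). It did not pass under quantile normalization, with probes averaged or taken singly, with outlier spots kept or with a replicate block. After hepatectomy the levels were 0.92, 3.42, 3.38 and 1.74, of which the highest falls just short of the lowest untreated MCD liver. That difference was -1.35 ± 0.90 (adjusted p = 0.534). With agonist in both arms, the diet effect on Fgf21 was 1.25 ± 0.90 at baseline (adjusted p = 0.385) and 2.69 ± 0.90 after hepatectomy (adjusted p = 0.0612). The latter was 1.66 ± 0.85 without the 2 livers that stood apart (adjusted p = 0.238) and 3.17 without replicate 1 of the treated MCD livers after hepatectomy (adjusted p = 0.0420). Pancreatic acinar cells also express Fgf21, and their 12 markers after hepatectomy summed to 4.86 to 9.03 on standard diet and 5.16 to 12.4 on the MCD diet. With agonist the sums were 5.12 to 13.3 on standard diet and 8.84 to 36.2 on the MCD diet. Of 9 acinar markers tested, 4 rose with the diet under agonist after hepatectomy (Try4, Cpa1, Prss2 and Clps, named after their values were seen), and 1 rose with the diet without agonist. Their part in the result was not tested.

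From highest to lowest mean, the Fgf21 groups were MCD (4.47 ± 0.94, SD, n = 4), MCD after hepatectomy (3.72 ± 0.30), MCD with agonist after hepatectomy (2.36 ± 1.24) and MCD with agonist (1.85 ± 0.97). Then came standard diet with agonist (0.60 ± 2.65), standard diet (-0.09 ± 0.21), standard diet with agonist after hepatectomy (-0.33 ± 2.12) and standard diet after hepatectomy (-3.35 ± 0.43). Gaps between neighbours were within the larger SD of the pair except below MCD after hepatectomy and above standard diet after hepatectomy. The arrays of the latter pair overlapped through the liver at -3.42.

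Inhbe, the activin E chain, followed the diet in the same direction. At baseline its levels were 3.89, 3.49, 3.86 and 3.33 on standard diet and 5.18, 4.99, 5.31 and 5.23 on the MCD diet. The MCD livers were tight and all above the others, a rise of 1.54 ± 0.48 (2.90-fold, adjusted p = 0.0196) that just missed the threshold without replicate 4 on standard diet (adjusted p = 0.0506). After hepatectomy the levels were 1.98, 3.38, 2.61 and 3.09 on standard diet and 4.97, 4.42, 4.83 and 4.78 on the MCD diet. The groups again did not overlap, with a rise of 1.99 ± 0.48 (adjusted p = 0.00718), and 1.73 ± 0.49 without the 2 livers that stood apart (adjusted p = 0.0177).

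The agonist lowered Inhbe on the MCD diet at baseline. Treated livers had levels of 2.95, 4.04, 2.10 and 3.17, all below the untreated MCD livers and, except 1, below all standard diet livers. The fall was 2.11 ± 0.48 on the log2 scale (4.32-fold, adjusted p = 0.00563) and passed with each array left out. After hepatectomy the treated MCD livers had 1.86, 3.57, 3.78 and 3.37, again without overlap, but the difference of -1.61 ± 0.48 did not pass (adjusted p = 0.127). On standard diet the agonist livers ranged from 0.80 to 3.76 at baseline and from 0.82 to 2.60 after hepatectomy. Those differences were -1.15 ± 0.48 (adjusted p = 0.151) and -0.95 ± 0.48 (limma adjusted p = 1.000). The diet by agonist interaction at baseline was -0.96 ± 0.68 (adjusted p = 0.378) for Inhbe. For Fgf21 it was -3.30 ± 1.27 (adjusted p = 0.0892), which passed under median scaling (adjusted p = 0.0440) and the other background correction (0.0192). With agonist in both arms the diet effect on Inhbe was 0.57 ± 0.48 at baseline (adjusted p = 0.471) and 1.33 ± 0.48 after hepatectomy (adjusted p = 0.0852). The latter was 1.00 ± 0.49 without the 2 livers that stood apart (adjusted p = 0.216) and 1.76 without replicate 1 of the treated MCD livers (adjusted p = 0.0238). Inhbe group means ran from 5.18 ± 0.14 (MCD) and 4.75 ± 0.23 (MCD after hepatectomy) to 1.81 ± 0.74 (standard diet with agonist after hepatectomy, SD, n = 4). The first 3 groups in that order, of which standard diet at baseline was the last at 3.64 ± 0.28, did not overlap with one another, and all later neighbours did.

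Genes of the integrated stress response, in which ATF4 raises amino acid synthesis and stress genes, were listed apart from the members, with 19 measured. With the MCD diet at baseline 11 were higher by limma's test and 0 lower, and the median log2 change was 1.72 against -0.13 over all genes. The leading rises were Nupr1, a stress-induced chromatin protein (6.03 ± 0.61), Psat1 of serine synthesis (5.91 ± 0.61), the asparagine synthetase Asns (5.29 ± 0.41) and the pseudokinase Trib3 (4.19 ± 0.61). After hepatectomy the diet raised 11 and lowered 1, with a median of 1.11 against -0.04, led by Psat1 (4.47 ± 0.61) and Nupr1 (3.45 ± 0.61). With agonist in both arms it raised 6 and lowered 1 at baseline (median 0.48 against 0.03) and raised 7 and lowered 0 after hepatectomy (median 0.92). On the MCD diet at baseline the agonist raised 0 and lowered 5, with a median of -0.66 against 0.14. Those 5 included Atf3 (-3.15 ± 0.79), Nupr1 (-2.87 ± 0.61), Ddit4 (-2.22 ± 0.68) and Ddit3, which encodes CHOP (-2.05 ± 0.37). The share of all genes that passed was 26% for the diet at baseline and 11.5% after hepatectomy. It was 15.2% and 8.23% for the diet with agonist in both arms, and 13.3% for the agonist on the MCD diet at baseline. Asns rose with the agonist on standard diet at baseline (2.83 ± 0.41), where 6.52% of all genes passed, and the rest of the list is not reported here for that comparison. Macrophage markers moved with the same contrasts: under the diet at baseline 9 of 11 rose and 0 fell, with the agonist on standard diet 3 rose, and with the agonist on the MCD diet 0 rose and 2 fell. Of 10 stellate and fibroblast markers, 5 rose and 0 fell with the diet at baseline, with sums of 74.0 to 96.5 on standard diet and 199 to 391 on the MCD diet, and 3 fell with the agonist on the MCD diet. Of 10 hepatocyte markers 2 fell with the diet at baseline, with sums of 5648 to 7586 and 3705 to 4361. Their part in the results was not tested.

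**Figure D3:**
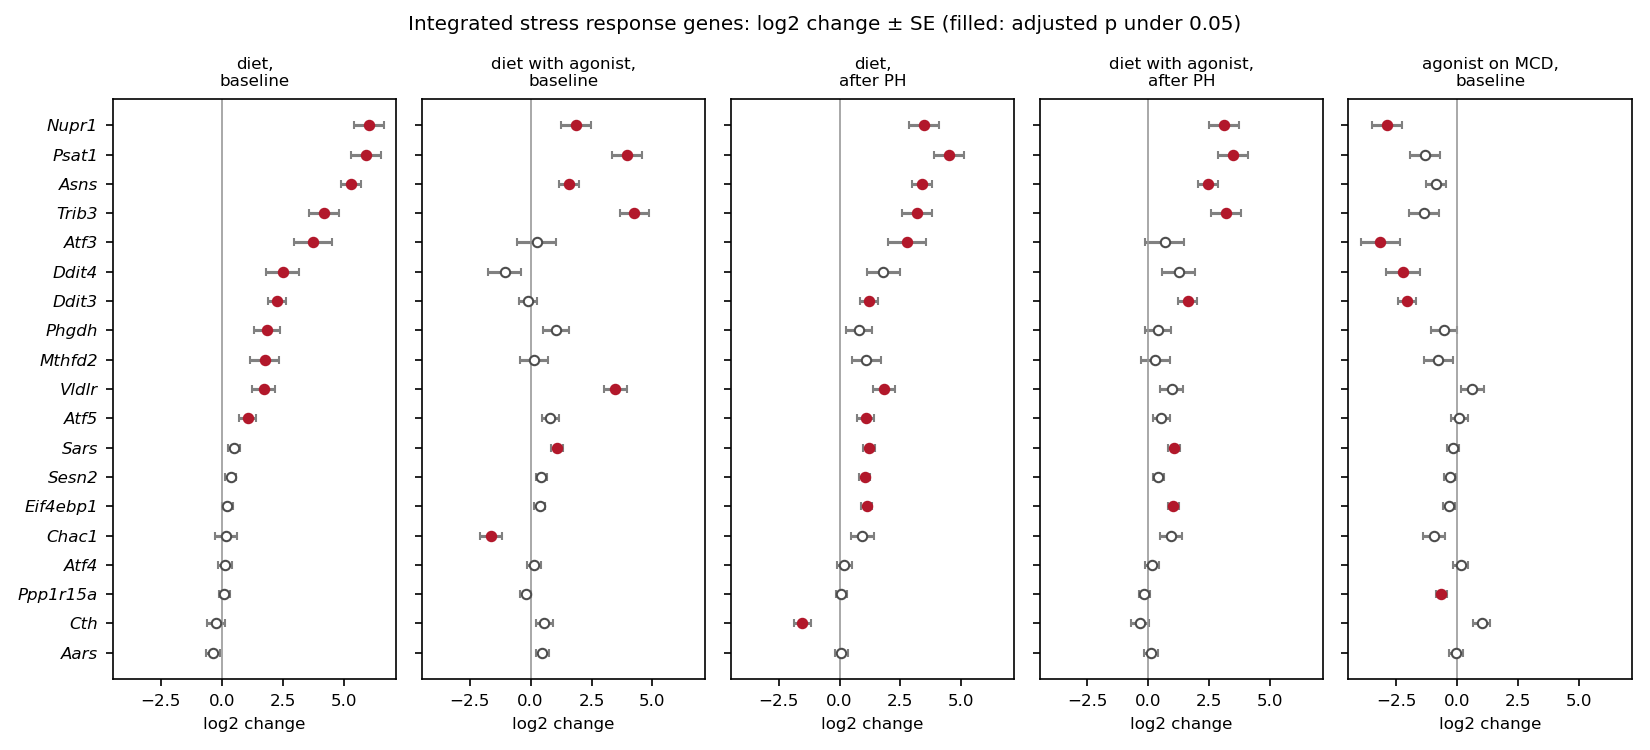
Log2 change ± SE of the 19 measured integrated stress response genes in the 4 diet comparisons and for the agonist on the MCD diet at baseline (PH, partial hepatectomy; filled points passed an adjusted p of 0.05). Nupr1 (6.03) and Psat1 (5.91) lead at baseline, and 11 genes rose in each diet comparison without agonist.

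Gdf15 did not follow the diet. Its levels at baseline were 2.60, 3.57, 4.93 and 4.87 on standard diet, 4.36, 4.53, 3.99 and 3.40 on the MCD diet, and 4.49, 4.15, 3.39 and 3.86 on standard diet with agonist. These 3 groups overlapped, with means of 3.99 ± 1.12, 4.07 ± 0.50 and 3.97 ± 0.47 (SD, n = 4). The change with diet was 0.08 ± 0.55 (adjusted p = 0.931) and with agonist on standard diet -0.02 ± 0.55 (adjusted p = 0.989).

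The livers with both diet and agonist had a lower mean Gdf15 level than those 3 groups. Their Gdf15 levels were 1.74, 2.62, -0.05 and 2.40, below every MCD liver and every agonist liver on standard diet. The highest of them just exceeded the lowest untreated standard diet liver (2.60), so those groups overlapped. Gdf15 fell by 2.39 ± 0.55 with the agonist on the MCD diet (5.25-fold, adjusted p = 0.00575) and by 2.29 ± 0.55 with the diet under agonist (4.91-fold, adjusted p = 0.00465). Both calls held with each array left out. Macrophage markers moved too: 2 of 11 fell with the diet under agonist (15.2% of all genes passed), the defining Adgre1 among them (-1.87 ± 0.57). In the diet by agonist interaction 6 of 11 passed downwards (11.1% of all genes passed). Their part in the Gdf15 result was not tested. The interaction of diet and agonist was -2.37 ± 0.78 (adjusted p = 0.0456). It was lost with 10 of 16 arrays left out 1 at a time, its adjusted p reaching 0.115, and under quantile normalization, no filter on dim probes and a fit of the groups compared alone. In the p53 list, a further known route to Gdf15, 4 of 13 measured genes rose with the diet at baseline and 0 fell, near the 26% of all genes that passed, led by the apoptosis genes Pmaip1 (2.28 ± 0.64) and Tnfrsf10b (2.17 ± 0.46). With the agonist on the MCD diet 1 of the 13 fell, Trp53inp1 (-1.04 ± 0.33).

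After hepatectomy Gdf15 was lower in both groups without agonist. On standard diet the levels were 2.66, 2.09, 0.63 and 1.19, a fall of 2.35 ± 0.55 from baseline (5.09-fold, adjusted p = 0.00563), and -2.69 ± 0.58 without the 2 livers that stood apart, although the highest of these livers exceeded the lowest baseline liver. The call was lost in a fit of the groups compared alone (adjusted p = 0.0526). On the MCD diet the levels were 2.93, 2.66, 1.96 and 1.93, all below the MCD livers at baseline, and the fall of 1.70 ± 0.55 only just passed (adjusted p = 0.0469). It was lost with 6 of 8 arrays left out 1 at a time and under 5 other settings, with adjusted p up to 0.122. With agonist the changes were -1.37 ± 0.55 on standard diet (adjusted p = 0.123) and 0.29 ± 0.55 on the MCD diet (adjusted p = 0.773). Macrophage markers moved with hepatectomy on standard diet, where 10 of 11 rose and 13.8% of all genes passed. There 2 of 10 hepatocyte markers fell. The hepatocyte sums were 5648 to 7586 on standard diet at baseline and 3117 to 5170 after hepatectomy, without overlap. On the MCD diet 1 of 11 macrophage markers rose, where 9.46% of all genes passed. The part of all these markers in these results, and in those for Fgf21 and Angptl4, was not tested. Among livers after hepatectomy all 4 groups overlapped, with means from 1.64 ± 0.91 on standard diet to 2.61 ± 0.72 on standard diet with agonist.

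Angptl4, the lipoprotein lipase inhibitor, stood lowest on standard diet after hepatectomy. On standard diet after hepatectomy its levels were 5.24, 4.24, 6.70 and 6.23, all below the baseline livers on the same diet, which had 7.15, 7.72, 7.07 and 7.21. The fall was 1.69 ± 0.36 (3.22-fold, adjusted p = 0.00296), and 1.56 ± 0.39 on the log2 scale without the 2 livers that stood apart (adjusted p = 0.0142). A fit of the groups compared alone lost the call (adjusted p = 0.0732). MCD livers after hepatectomy had 7.67, 7.48, 7.23 and 7.45, all above the standard diet livers, a rise of 1.86 ± 0.36 (3.62-fold, adjusted p = 0.00110), and 1.73 ± 0.39 without the 2 livers that stood apart. At baseline the diet groups overlapped and the change was -0.18 ± 0.36 (adjusted p = 0.751). The difference between these diet effects, 2.03 ± 0.51, passed (adjusted p = 0.0318) but was lost without the 2 livers that stood apart (1.91 ± 0.53, adjusted p = 0.0610). It was also lost with 6 of 16 arrays left out 1 at a time, under median scaling (adjusted p = 0.0572), quantile normalization (0.0512) and in a fit of the groups compared alone (0.0681). The group mean was lowest there and highest on the MCD diet with agonist at baseline (7.55 ± 0.14, SD, n = 4), and in the order of the means every neighbouring pair of groups overlapped.

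Among 18 measured PPAR alpha targets, genes of fatty acid use, 5 rose and 0 fell with the diet after hepatectomy, where 11.5% of all genes passed. The median change of these targets was 0.23 against -0.04 over all genes. The rises were led by Cyp4a14 (3.07 ± 0.65), the pantetheinase Vnn1 (1.72 ± 0.44), the pyruvate dehydrogenase kinase Pdk4 (1.57 ± 0.39) and Ppara itself (1.22 ± 0.34). At baseline 2 rose and 3 fell with the diet, near the 26% of all genes that passed, with falls of Acot1 (-2.97 ± 0.64) and Acaa1b (-2.44 ± 0.44). Hepatectomy on standard diet raised 0 and lowered 2 of the 18, Acaa1b (-1.32 ± 0.44) and Cpt1a (-0.65 ± 0.22), where 13.8% of all genes passed. Lpl, the lipase that Angptl4 inhibits, rose with hepatectomy on standard diet (2.58 ± 0.58, adjusted p = 0.00453) and on the MCD diet (2.21 ± 0.58, adjusted p = 0.0152). Adipocytes also express Angptl4 and Lpl. The summed level of 10 adipocyte markers was 12.8 to 18.2 on standard diet after hepatectomy and 32.1 to 57.7 on the MCD diet after hepatectomy, without overlap, and 5 of the 10 were well above background on all arrays in each of these groups. Lep was well above background on no array of either group. Of the 6 tested, 2 rose with the diet after hepatectomy, Cidec (5.53 ± 0.64) and Plin4 (2.74 ± 0.63), lipid droplet proteins named after their values were seen. The other 4 did not pass and had values below 0, from -2.36 to -0.32. Their part in the Angptl4 result was not tested.

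Angptl6 passed in no comparison. Its levels on standard diet were 3.63, 5.55, 3.54 and 4.05 at baseline and 1.52, 3.42, 3.75 and 3.20 after hepatectomy, which overlap. The change of -1.22 ± 0.42 missed the threshold (adjusted p = 0.0508), and without the 2 livers that stood apart it was -0.74 ± 0.34 (adjusted p = 0.185). The liver at 1.52 and the lowest on standard diet with agonist after hepatectomy, at 1.83, are the pair that stood apart. MCD livers with agonist at baseline, at 4.63 to 4.86, lay above all agonist livers on standard diet, at 3.16 to 4.07, with a change of 1.01 ± 0.42 (adjusted p = 0.109).

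**Figure D4:**
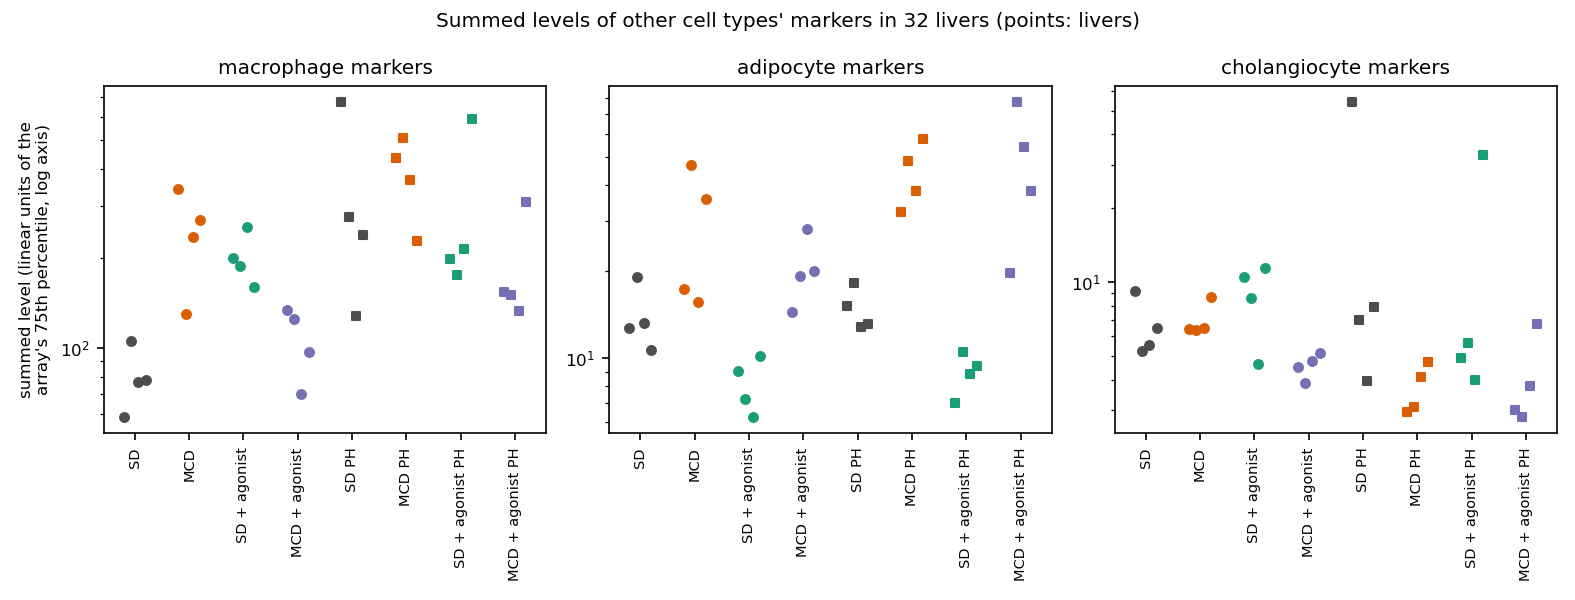
Summed levels of macrophage, adipocyte and cholangiocyte markers in the 32 livers (linear units of the array's 75th percentile, log axis; points are livers). Replicate 1 on standard diet after hepatectomy (54.4) and replicate 4 on standard diet with agonist after hepatectomy (32.9) lie above the others for cholangiocyte markers.

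Fetub fell with the diet in 3 of the 4 diet comparisons, while Ahsg passed in none. Fetub at baseline had levels of 7.60, 8.26, 7.92 and 8.32 on standard diet and 7.05, 7.14, 7.55 and 7.49 on the MCD diet. The MCD livers were all lower, a fall of 0.72 ± 0.21 on the log2 scale (1.64-fold, adjusted p = 0.0145). This call was lost under median scaling (-0.35, adjusted p = 0.267), quantile normalization (0.0544) and a fit of the groups compared alone (0.0597). It was also lost without replicate 4 on standard diet or replicate 1 on the MCD diet, with adjusted p up to 0.0521. With the diet at baseline the summed hepatocyte markers were lower without overlap, as given above, and the markers that fell were Apoa1 (-1.13 ± 0.25) and Serpina1a (-0.79 ± 0.25). Their part in the Fetub result was not tested. Fetub was also lower with the diet under agonist. At baseline the levels were 7.96, 8.34, 7.65 and 8.33 on standard diet and 7.33, 7.04, 7.11 and 7.21 on the MCD diet, a fall of 0.90 ± 0.21 on the log2 scale (1.86-fold, adjusted p = 0.00476). Of the settings tried, it was lost in the fit of the groups compared alone (adjusted p = 0.0749) and in the processed table as deposited. After hepatectomy the levels were 7.65, 8.11, 7.83 and 7.86 on standard diet and 6.83, 6.89, 6.14 and 6.59 on the MCD diet. The fall was 1.25 ± 0.21 on the log2 scale (2.38-fold, adjusted p = 0.000444), and it passed with each of the 8 arrays left out and under all settings tried on the scanner values. Without the 2 livers that stood apart the change was -1.25 ± 0.22 (adjusted p = 0.000377). Summed hepatocyte markers in these groups were 3865 to 6467 on standard diet and 3063 to 3893 on the MCD diet, and their part was not tested. Without agonist the diet change after hepatectomy was -0.08 ± 0.21 (adjusted p = 0.857), and -0.26 ± 0.22 without the 2 livers that stood apart (adjusted p = 0.471). The diet by agonist interaction after hepatectomy was -1.17 ± 0.30, with an unadjusted p of 0.000616 and an adjusted p of 0.637, and 0.00461% of all genes passed it. Without those 2 livers it was -0.99 ± 0.31 (adjusted p = 0.430). The agonist on the MCD diet after hepatectomy gave -0.84 ± 0.21 for Fetub (adjusted p = 0.0701), which passed under quantile normalization (0.0202) and another background correction (0.0144).

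Ahsg lay between 8.88 and 10.14 in all 32 livers. Its group means ran from 9.17 ± 0.20 on the MCD diet with agonist after hepatectomy to 9.77 ± 0.32 on standard diet, and every neighbouring pair in that order overlapped. Its smallest adjusted p in the main fit was 0.116, for the diet at baseline (-0.46 ± 0.22). Under another background correction Ahsg passed for the diet at baseline (-0.59, adjusted p = 0.0254) and for hepatectomy on the MCD diet with agonist (-0.64, 0.0162). Under quantile normalization it passed for the agonist on the MCD diet at baseline (-0.53, 0.0225). Hepatectomy with agonist passed there too, on standard diet (0.52, 0.0347) and on the MCD diet (0.68, 0.00529), the latter with the opposite sign. Rbp4, the retinol carrier, had group means from 8.29 ± 0.39 on the MCD diet after hepatectomy to 9.23 ± 0.70 on the MCD diet with agonist. Levels on the MCD diet after hepatectomy were 8.26, 7.97, 8.85 and 8.08, and on standard diet after hepatectomy 8.73, 9.13, 9.19 and 8.76. These overlap, and the difference of -0.66 ± 0.32 did not pass (adjusted p = 0.190).

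Some members varied together from liver to liver. Over the 32 livers Fgf21 and Inhbe had a Pearson correlation of 0.69 (Spearman 0.68), and after each group's mean was subtracted 0.60 (Spearman 0.50). Without the 2 livers farthest in Fgf21 the latter was 0.37, so it rests in part on those livers. Fetub and Ahsg, both on chromosome 16, had 0.63 on levels and 0.63 on deviations from group means (Spearman 0.57), and 0.63 without the farthest 2. Fgf21 and Gdf15 had 0.25 on levels and 0.24 on deviations. These are 3 of 28 pairs, given as descriptions, since values from 1 array share its scaling.

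**Figure D5:**
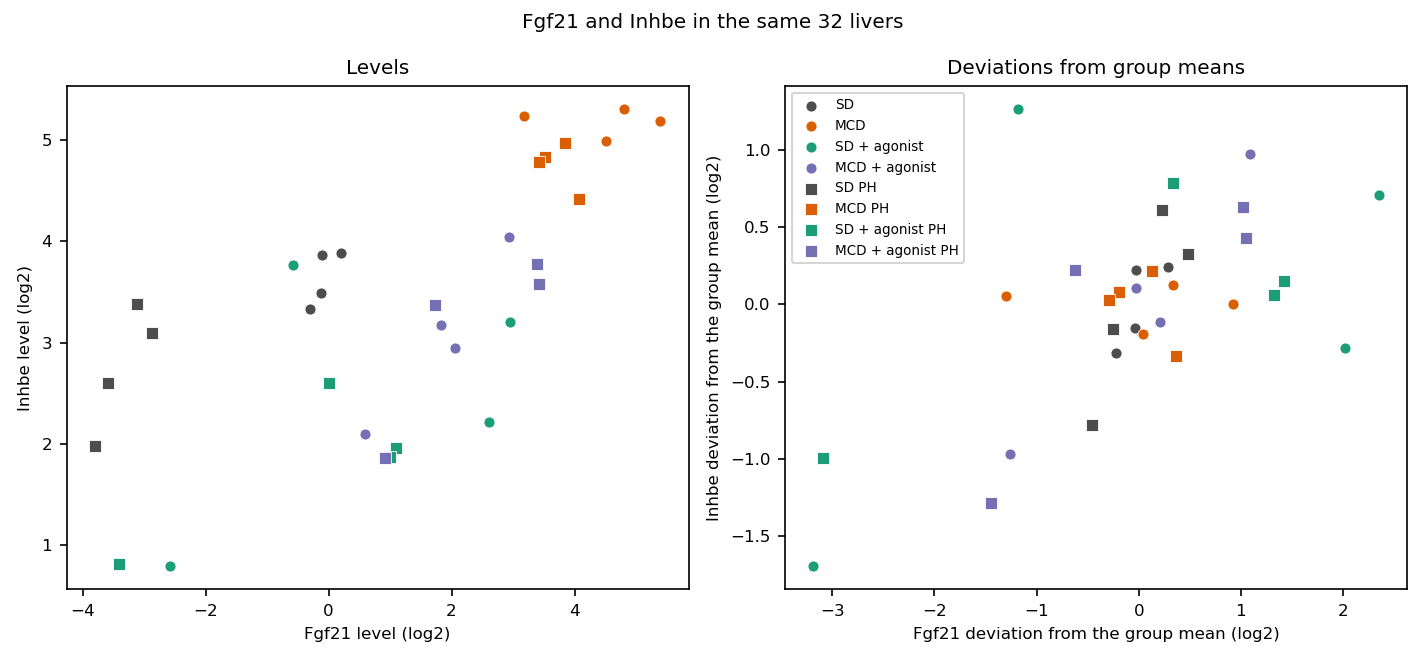
Fgf21 against Inhbe in 32 livers, as levels (left, log2) and as deviations from the group mean (right, log2); each point is a liver, squares are after hepatectomy. The MCD livers without agonist lie at the upper right of the left panel, with Inhbe at 4.42 to 5.31.

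The genes whose levels were most like each member over the 32 livers were taken by Pearson correlation, as descriptions. For Fgf21 they were Fut1 (0.88), Adh7 (0.84) and Adgrv1 (0.81). Fut1, a fucosyltransferase, is the annotated neighbour of Fgf21, 2115 bases away and not overlapping, and its correlation on deviations from group means was 0.73. On deviations Adgrv1 had 0.64 and Adh7 only 0.37. For Inhbe they were G0s2, an inhibitor of the triglyceride lipase ATGL (0.87), Mlec (0.80) and Fads6 (0.72). For G0s2 the correlation on deviations from group means was 0.87 as well, for Mlec 0.69 and for Fads6 only 0.25. For Gdf15 they were the heat shock protein gene Hspa1a (0.74), its co-chaperone Bag3 (0.74) and Arfip2 (0.72). For Ahsg they were Apoc1 (0.91), Milr1 (0.90) and Serpina1e (0.80), and for Fetub Zfp882, Prr36 and Tm7sf2 (all 0.83). The Fetub values fell to between 0.46 and 0.50 on deviations from group means. For Angptl4 they were Lgals4, Ak4 and Ppp1r3g (0.78 to 0.79), for Angptl6 Ap4m1, R3hdm2 and Zfp91 (0.82 to 0.85), and for Rbp4 Elk1, Atp5h and Apool (0.74 to 0.79).

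Of 17 receptors and partners of these factors measured, 2 rose and 3 fell with the diet at baseline, a share near the 26% of all genes, among them hepatic lipase Lipc (-1.55 ± 0.38) and the activin receptors Acvr2b (-1.51 ± 0.29) and Acvr1b (0.98 ± 0.31). After hepatectomy 1 rose with the diet, the metalloprotease gene Mep1a (1.90 ± 0.59), and 1 fell, Lipc (-2.43 ± 0.38). Of all genes 11.5% passed there, a share near that of this list. With the agonist Fgfr3 fell on standard diet (-1.21 ± 0.34) and on the MCD diet (-1.13 ± 0.34) at baseline, and the insulin receptor Insr rose on the MCD diet (0.85 ± 0.27). Of 28 other secreted liver factors measured, 6 rose and 2 fell with the diet at baseline, also near that share (median 0.52 against -0.13 over all genes). They were led by Gpnmb (5.19 ± 1.38), the iron-binding lipocalin Lcn2 (5.08 ± 0.99) and Apoa4 (3.45 ± 0.42), with a fall of Enho, which encodes adropin (-1.79 ± 0.46). After hepatectomy 6 rose and 1 fell with the diet (median 0.53 against -0.04, 11.5% of all genes passed), among them Apoa4 (3.63 ± 0.42). With the agonist on standard diet at baseline 4 rose and 1 fell, led by Lcn2 (4.36 ± 0.99) and the fibrinogen-like Fgl1 (2.22 ± 0.41). Of all genes 6.52% passed there. With the agonist on the MCD diet at baseline 1 rose and 1 fell, Enho (1.49 ± 0.46) and the hepatocyte growth factor Hgf (-1.84 ± 0.37). There 13.3% of all genes passed.

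Of 14 measured genes of the glucagon and cAMP response, 2 rose and 0 fell with the agonist on standard diet at baseline, Igfbp1, a secreted binding protein of insulin-like growth factors that is also in the preceding list (1.58 ± 0.42), and the cAMP-responsive Crem (1.27 ± 0.32). On the MCD diet at baseline 0 rose and 1 fell, the nuclear receptor Nr4a1 (-2.49 ± 0.64). After hepatectomy 0 of the 14 passed with the agonist on standard diet, where only 0.00922% of all genes did, so this count says little. At baseline 6.52% of all genes passed with the agonist on standard diet and 13.3% on the MCD diet.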

How the data were processed

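RNA from 32 mouse livers had been hybridised to one-colour (Cy3) Agilent arrays. Per the file headers, Feature Extraction 10.7.3.1 wrote the processed signal intensity, already background-subtracted, which the authors deposited with flags for outlier, saturated and well-above-background spots. A deposited series table holds the authors' log2 values. Its further scaling and centring are not given in the sources used here. Of 62976 spots per array, 3671 were controls. Outlier spots (0.264%) were left out. Each array's 75th percentile of log2 intensity was subtracted. A probe was kept where all 4 arrays of some group had it well above background (30118 of 55681 probes), and each of 21691 genes took its brightest probe. The RefSeq table named 31161 of 59305 probe spots through their accession, 3502 through their symbol and 321 through an older symbol, and for 24321 the file's own name was used.

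One limma fit (R 4.3.3, limma 3.58.1) over 8 groups gave 15 comparisons, with Benjamini-Hochberg adjustment and a threshold of 0.05. Labels call the replicates biological and the design names independent livers. The procedure was tested on simulated data. The members and gene lists were chosen with earlier results of these data known. All members are named. From each list the text names up to 4 genes past the threshold with the largest changes, and for likeness the 3 genes with the highest correlation. Some genes that this rule selects are not reported here. Alternatives were median scaling, quantile normalization, normexp background correction with an offset of 50, no filter on dim probes, other probe rules, outlier spots kept, a replicate block, only the groups compared, the processed table, and each array left out.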

Additional observations from a re-analysis of the deposited data

Results flagged for a closer look

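In 4 of the 64 sets of 4 livers (8 genes in 8 groups), 1 liver lay far from the other 3, its gap to the nearest, divided by the range of the set, being above Dixon's critical value at the 95% level. Chance gives this in about 1 in 20 sets, so a count of 4 is near what chance gives. Fetub was low in replicate 1 on standard diet after hepatectomy, at a level of 6.99. Angptl6 was low in replicate 4 on standard diet with agonist after hepatectomy, at 1.83. These are the 2 livers with the highest macrophage and cholangiocyte marker sums, and the part of those markers in the levels was not tested. Gdf15 was high in replicate 2 on standard diet with agonist after hepatectomy, at 3.68. Rbp4 was high in replicate 2 on the MCD diet with agonist at baseline, at 10.27.

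A pair of effects passed a test of the difference between groups in the main fit, and neither call was stable. The agonist effect on Gdf15 at baseline differed between diets by -2.37 ± 0.78 on the log2 scale (limma adjusted p = 0.0456), being -0.02 on standard diet and -2.39 on the MCD diet. The diet effect on Angptl4 differed between livers after hepatectomy and at baseline by 2.03 ± 0.51 (limma adjusted p = 0.0318), being 1.86 and -0.18. With each of 16 arrays left out in turn, the Gdf15 call passed in 6 fits and the Angptl4 call in 10. Without the 2 livers that stood apart the Angptl4 call was lost (limma adjusted p = 0.0610).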

How the results depend on the processing

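Under the other settings of the scanner values, 996 of 1080 results kept their direction and side of the threshold, 17 lost and 25 gained a call, 41 turned their sign without a call in either, and 1 reversed with a call: Ahsg with hepatectomy on the MCD diet with agonist, 0.68 under quantile normalization. The number of members past the threshold moved by over 1.5 times as follows, and the cause was not tested. Normexp correction gave 5 for the diet at baseline, 2 for the diet under agonist after hepatectomy, 2 for each of the interactions of diet with agonist at baseline and with hepatectomy, 1 for the agonist on the MCD diet after hepatectomy, 0 for hepatectomy on the MCD diet and 3 for hepatectomy with agonist on either diet. Quantile normalization gave 0 for both of those interactions and for hepatectomy on the MCD diet, and 1 for the agonist on the MCD diet after hepatectomy and for hepatectomy with agonist on either diet. Median scaling gave 2 for diet by agonist and 0 for diet by hepatectomy. Without the dim-probe filter there were 0 for diet by agonist and 0 for hepatectomy on the MCD diet, which the mean over probes and each probe on its own also put at 0. With only the groups compared there were 1 for the diet under agonist at baseline, 0 for diet by agonist, 1 for hepatectomy on standard diet and 2 on the MCD diet. Removal of both livers that stood apart, chosen after seeing the data, gave 0 for diet by hepatectomy. Smaller moves were from 2 to 3 for the agonist on the MCD diet at baseline (5 settings) and from 3 to 4 for hepatectomy on standard diet (normexp, mean over probes). With each array left out in turn the counts ran from 1 to 3 for the diet at baseline, 0 to 1 for diet by agonist at baseline, 1 to 3 for the diet under agonist after hepatectomy, 2 to 4 for hepatectomy on standard diet, 0 to 1 on the MCD diet and 0 to 1 for diet by hepatectomy.

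In the processed table as deposited the counts were 0 for the diet at baseline, 3 for the agonist on standard diet at baseline, 0 for diet by agonist, 0 for the diet after hepatectomy, and 3 and 2 for the agonist after hepatectomy on standard and MCD diet. There 11 of 80 member changes reversed and 22 turned their sign without a call in either. With the diet at baseline Fetub was 0.33 and Inhbe -0.62, and under agonist Fetub was 0.12, Fgf21 -2.68 and Inhbe -1.95. With the agonist at baseline Fetub was -0.87 and Inhbe 1.82 on standard diet, and Inhbe 0.48 on the MCD diet. After hepatectomy Inhbe was -0.97 with the diet and 1.64 with the agonist on standard diet, and Fgf21 2.35 with the agonist on the MCD diet. With each column at the array it matches, 0 of 80 reversed, 15 turned their sign without a call, and the counts were 0 for diet by agonist at baseline, 2 for the diet under agonist after hepatectomy and 1 for the agonist on the MCD diet after hepatectomy.

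Replicates were treated as unpaired. Correlations of same-numbered arrays, on deviations from group means, ran from -0.20 to 0.44. In none of 12 comparisons did all 4 pairs correlate above 0.1, a rule that cannot tell a weak pairing from none. With the replicate block hepatectomy on standard diet called 4 members, Angptl6 passing at -1.22 (adjusted p = 0.0378), and the other counts were as without it. Over all genes, normexp called 6769 genes for the agonist on the MCD diet at baseline against 2876, and 8280 against 2177 for hepatectomy on the MCD diet with agonist. Only the groups compared called 267 against 1414 for the agonist on standard diet at baseline and 1061 against 2986 for hepatectomy on standard diet. Without both livers that stood apart the latter was 1682. Without the dim-probe filter 5404 were called for the agonist on the MCD diet at baseline. The processed table as deposited called 1 gene for the diet after hepatectomy against 2501. With 4 arrays a group, signal over background and array number limit what small changes can be called.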
